A study of Mus musculus with 13 samples.

Results

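In epididymal white fat of wild type mice, α-galactosylceramide (αGalCer) was compared with its vehicle on 7 of the 13 arrays of the series. The members were the 3 wild type arrays after vehicle and the 4 wild type arrays after αGalCer, taken by their sample titles, and all 18818 genes with a probe set of their own were compared. The other 6 arrays came from CD1d knockout fat, 3 after vehicle and 3 after αGalCer. All groups were males on a C57Bl/6J background that ate a high-fat diet for 4 days and were killed on day 4 at 6.5 weeks of age. On days 0 and 2 the αGalCer groups were injected intraperitoneally with 100 ng per g of body weight and the vehicle groups with pyridine. The knockout strain was B6.129S6-Cd1d1/Cd1d2tm1spb/J, so it lacks CD1d in every cell and not in fat alone. RNA came from whole epididymal fat, with no sorting of cells. The labels do not state that each array of a group came from another animal, so the p-values rest on the spread among samples, part of which could be technical.

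CD1d is a surface protein that presents lipids. αGalCer bound to CD1d activates invariant natural killer T (NKT) cells, lymphocytes with an almost fixed T cell receptor that release cytokines within hours and that are more frequent in fat than in most tissues. White fat also holds adipocytes, which store triglyceride and secrete hormones, and a stroma of progenitors, vessels and immune cells, among which macrophages are the largest group in obesity.

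Levels are log2 RMA values, so a difference of 1 is a 2-fold difference, and levels of different probe sets cannot be set against each other. Each change is the αGalCer mean minus the vehicle mean (4 against 3 arrays), ± its standard error from limma. Genes with an adjusted p under 0.05 over all 18818 genes were called, and only these are said to have risen or fallen. Arrays of the same group correlated at 0.987 or more (vehicle) and 0.989 or more (αGalCer) over all genes, and arrays of different groups at 0.920 to 0.956. The median SD of a gene was 0.131 over the vehicle arrays and 0.132 over the αGalCer arrays. Array medians lay between 5.68 and 5.83. The mean of the adipocyte markers, which define the tissue, was 9.96 or more on every wild type array. Lists of genes are described by how many members were called and by their median change, beside the same over all genes.

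The response took in a large share of the genes of the tissue. Of 18818 genes, 41.9% were called, 3733 higher (19.8%) and 4148 lower (22.0%). A called change of at least 2-fold was seen upward in 1392 genes (7.40%) and downward in 1416 (7.52%). The arrays of the groups did not overlap for 46.7% of genes, and 7480 of the 7881 called genes were among these. The size of the changes was not even on the 2 sides. At least 4-fold rises numbered 451 and at least 4-fold falls 219, and 23 genes rose at least 16-fold where Nnat alone fell that far. The median change over all genes was -0.02, and changes ran from -4.07 to 7.07. Scaled to the cytosolic ribosomal proteins in place of the deposited scale, the median of all genes moved to -0.38, and 15.4% of the calls were higher in place of 47.4%. Every direction below is therefore relative to the deposited RMA scale.

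**Figure D1:**
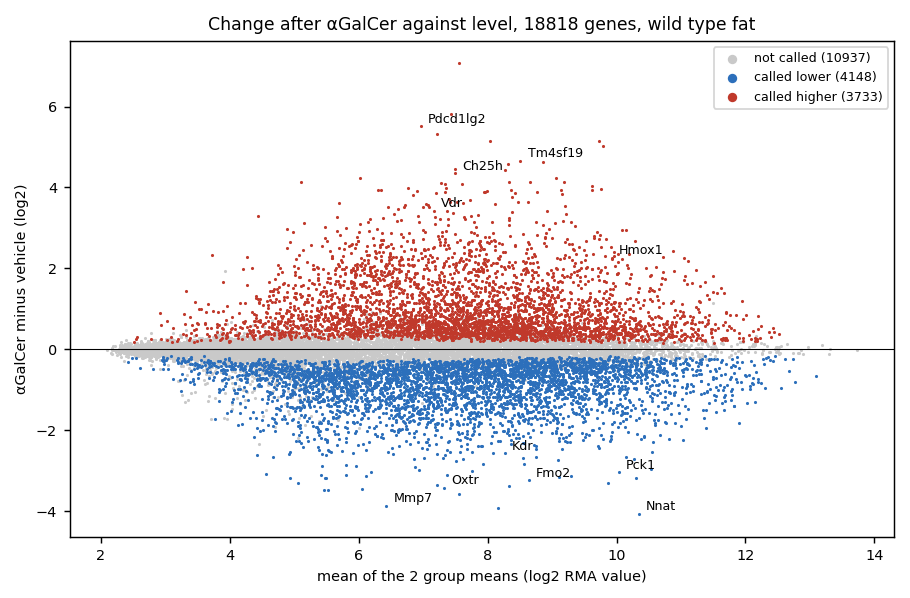
Change after αGalCer in wild type fat (log2, vertical) against the mean of the 2 group means (log2 RMA value, horizontal), with 1 point per gene for 18818 genes. Red points were called higher (3733), blue points called lower (4148) and grey points not called, and the rises reach 7.07 where the falls end at -4.07.

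Calls of at least 2-fold were spread unevenly over the brightness of the probe sets, which is not the abundance of their RNA. Brightness was read from the knockout vehicle arrays, whose values are not part of the contrast, and probe sets were divided into 10 classes of equal size. In the lowest class (2.09 to 3.45), 0.691% of genes were called at least 2-fold higher and 0.0531% at least 2-fold lower. Rises of that size were most frequent in the fifth class (5.62 to 6.51), at 14.2% of genes, and fell back to 2.39% in the highest class (9.62 to 13.78). Falls of that size were most frequent in the highest class, at 18.4%. With brightness read from the knockout αGalCer arrays instead, the lowest class held 0.638% higher and 0.584% lower, the fifth 14.1% higher and the highest 18.3% lower, so the excess of rises in the lowest class depends on the arrays used. RMA compresses dim probe sets, which makes the change of a dim gene look smaller than it is.

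The 20 largest rises held granule genes of killer cells and surface, secreted and enzyme genes of macrophages. Gzmb, the cytotoxic granule protease granzyme B, lay at 4.51, 4.47 and 4.57 after vehicle and 10.67, 10.04, 10.23 and 10.42 after αGalCer, a rise of 5.82 ± 0.14 (adjusted p = 1.82e-10). The arrays within each group lay close together and the groups far apart. Pdcd1lg2 encodes PD-L2, a ligand, carried by macrophages and dendritic cells, of PD-1, an inhibitory receptor of T cells, and it lay at 4.34, 4.07 and 4.22 after vehicle and 10.04, 9.79, 9.45 and 9.61 after αGalCer (5.51 ± 0.15, adjusted p = 2.86e-10). Tarm1, an activating receptor of myeloid cells, lay at 5.51, 5.54 and 5.37 after vehicle and 10.93, 10.65, 10.01 and 10.84 after αGalCer (5.14 ± 0.18, adjusted p = 2.83e-09). All of the 20 were chosen among genes whose groups do not overlap. αGalCer replicate 3 was the lowest of its group for Pdcd1lg2 and Tarm1.

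Arg1, which splits arginine into ornithine and urea, lay at 5.83, 7.83 and 7.84 after vehicle and 12.46, 12.28, 12.09 and 12.38 after αGalCer, and rose by 5.14 ± 0.44 (adjusted p = 1.12e-06). Vehicle replicate 1 was far below the other vehicle arrays, and the macrophage markers as a whole were lowest in that array too (mean 8.58 against 9.20 and 9.22). Chil3, a chitinase-like lectin of macrophages with near-identical relatives, showed the same order, with 3.21, 4.36 and 4.49 after vehicle and 10.86, 11.37, 11.01 and 11.12 after αGalCer (7.07 ± 0.35, adjusted p = 4.09e-08). The αGalCer arrays of both genes stayed close together, so the spread of these genes lies on the vehicle side. Which relative of Chil3 the probe set read is uncertain, as it is for Rnase2a, a ribonuclease of a multigene family (5.01 ± 0.47).

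The chemokines Ccl8 (4.63 ± 0.41), Ccl3 (4.23 ± 0.47) and Cxcl10 (4.13 ± 0.20) stood among the 20, with the granule proteins Gzma (4.57 ± 0.18) and perforin, Prf1 (4.10 ± 0.24). So did Mmp13 (5.32 ± 0.22) and Mmp12 (4.14 ± 0.14), proteases that cut collagen and elastin. Ch25h, which makes the antiviral sterol 25-hydroxycholesterol, had the widest spread after αGalCer of these, with 5.03, 4.87 and 6.08 after vehicle and 10.65, 9.88, 8.47 and 9.70 after αGalCer (4.35 ± 0.42, adjusted p = 2.88e-06). Tm4sf19, a membrane protein (4.67 ± 0.32), the receptors Slamf8 (4.45 ± 0.21), Fcgr4 (4.44 ± 0.26), Cd300lf (4.23 ± 0.27) and Tigit (4.12 ± 0.25), and the apolipoprotein-like Apol7c (4.14 ± 0.29) completed the list. The effect of αGalCer on all 20 differed from that in knockout fat by the test of the difference itself. That test uses the wild type values by which the 20 were chosen, so it is not independent support. Rnase2a went the other way in knockout fat (-2.58, not called), which adds to its difference.

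The 20 largest falls were divided by the test of the difference from knockout fat, which reuses the wild type values that chose them. In 11 of them the fall differed from the change in knockout fat, with SDs of 0.09 to 1.04 over the vehicle arrays. Nnat, neuronatin, an imprinted gene of adipocytes and neurons, lay at 12.13, 12.54 and 12.46 after vehicle and 8.67, 7.43, 9.36 and 7.77 after αGalCer (-4.07 ± 0.34, adjusted p = 9.33e-07). Oxtr, the oxytocin receptor, lay at 9.37, 9.12 and 8.63 after vehicle and 6.11, 5.21, 5.78 and 5.37 after αGalCer (-3.42 ± 0.22, adjusted p = 1.46e-07). Ltbp4, which holds latent TGF-beta in elastic fibres, lay at 10.97, 10.79 and 10.82 after vehicle and 8.46, 7.01, 7.54 and 7.92 after αGalCer (-3.13 ± 0.24, adjusted p = 5.02e-07). αGalCer replicate 2 was the lowest of its group for all 3 genes.

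Among the same 11 were Mest, an imprinted gene linked to fat expansion (-3.17 ± 0.22), Thrsp, a regulator of fatty acid synthesis (-3.30 ± 0.43), and Depp1, a FOXO target gene (-3.36 ± 0.17). Fmo2, a flavin monooxygenase (-3.24 ± 0.22), Slc6a13, a carrier of GABA and taurine (-3.15 ± 0.27), Inmt, a methyltransferase (-3.58 ± 0.33), and Itgbl1, a secreted integrin-like protein (-3.12 ± 0.18), belonged there too. The protease inhibitor gene Serpina1b lay at 10.45, 10.80 and 8.85 after vehicle and 5.53, 8.67, 6.65 and 5.73 after αGalCer (-3.39 ± 0.65, adjusted p = 0.000883). It is 1 of several near-identical copies, and its groups came close to touching.

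The other 9 of the 20 falls were not called different from the change in knockout fat, which was -3.28 to -2.01 for these genes. They were Gstm7, Mmp7, Dcdc2a, Dao, Cuzd1, ccdc198, Sectm1b, Cfap44 and Fam183b. Their vehicle arrays spread widely (SD 0.88 to 2.41), with replicate 2 the lowest for each of them. Mmp7, the protease matrilysin of glandular epithelium, is an example, with 9.09, 6.92 and 9.07 after vehicle and 4.68, 4.65, 4.37 and 4.28 after αGalCer (-3.87 ± 0.79 in wild type and -3.28 in knockout, adjusted p of the difference = 0.79). Markers of epididymis and duct epithelium, which include Mmp7 and Cuzd1 and so are not separate from these falls, were lowest in vehicle replicate 2. Their mean was 5.75, 4.88 and 6.49 in vehicle replicates 1, 2 and 3 and 4.29 to 4.42 in the αGalCer arrays, and 7 of 16 measured markers fell and 0 rose. Without vehicle replicate 3, Cuzd1 changed by -2.21 and was not called. The part of that tissue in these 9 falls was not tested.

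**Figure D2:**
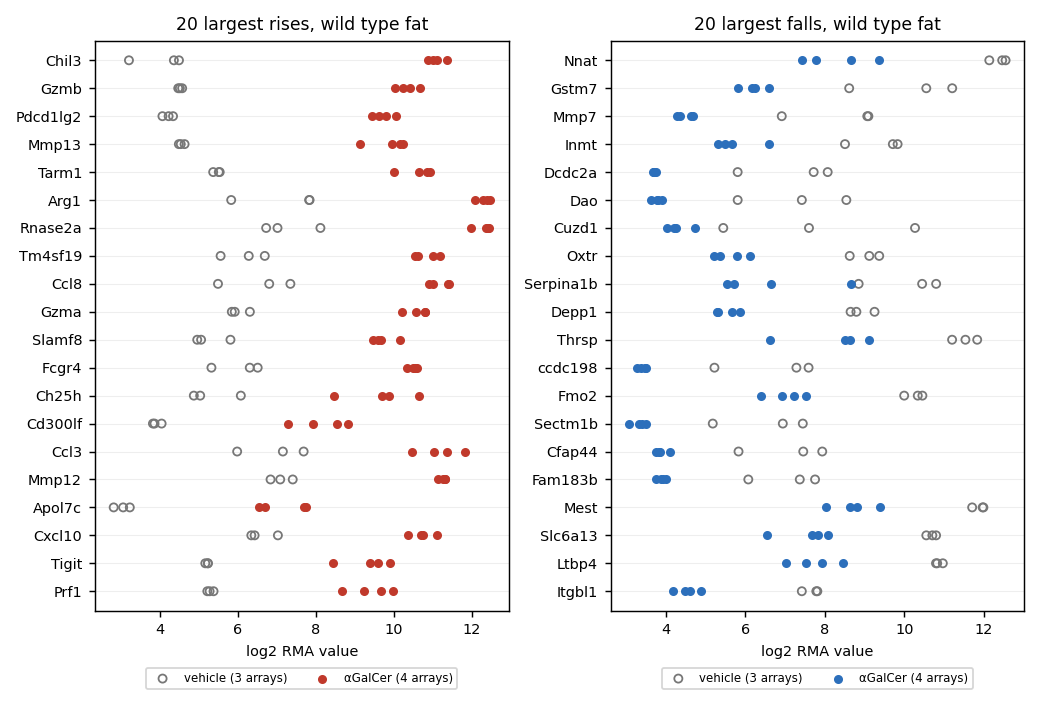
Log2 RMA value of the 20 genes with the largest rises (left) and the 20 with the largest falls (right) in each wild type array, with open circles for the 3 vehicle arrays and filled circles for the 4 αGalCer arrays. The genes were chosen among those whose groups do not overlap, and Mmp7, Dcdc2a, Dao and Cuzd1 spread widely over the vehicle arrays alone.

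Cytokine genes rose far more often than they fell. Of 37 measured interleukin and lymphokine genes, 22 were called higher and 1 lower (all genes 19.8% and 22.0%), with a median change of 0.64. Ifng, interferon gamma, lay at 5.03, 4.88 and 5.13 after vehicle and 8.75, 8.12, 7.87 and 7.99 after αGalCer (3.17 ± 0.19, adjusted p = 1.01e-07), and the groups did not overlap. Il1rn, the antagonist of the IL-1 receptor, rose most, by 3.70 ± 0.19, against 3.13 ± 0.42 for Il1a and 2.70 ± 0.71 for Il1b. Type 2 cytokines were also called, Il4 at 1.66 ± 0.15, Il13 at 0.74 ± 0.22 (0.68 and no longer called without vehicle replicate 3) and Il5 at 0.64 ± 0.15. Of the IL-12 chains, Il12a rose by a small amount (0.29 ± 0.11, adjusted p = 0.0458), a call lost when vehicle replicate 2 or 3, or any 1 αGalCer array, was left out and a sign that turns with ribosomal protein scaling (-0.07), and Il12b did not pass the test (0.18 ± 0.11, adjusted p = 0.206). The IL-17 genes Il17a (0.03 ± 0.14, adjusted p = 0.886) and Il17f (0.19 ± 0.10, adjusted p = 0.146) did not pass it either. The fall was in Il34, a ligand of the macrophage growth factor receptor, at 7.84, 7.68 and 7.84 after vehicle and 7.13, 6.26, 6.57 and 6.58 after αGalCer (-1.15 ± 0.19, adjusted p = 0.000317). The other ligand of that receptor, Csf1, rose by 1.35 ± 0.17.

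Receptors followed the same direction, with 26 of 39 chains higher, 5 lower and a median of 1.07. Il2rb, shared by the receptors for IL-2 and IL-15, lay at 6.28, 6.67 and 6.53 after vehicle and 10.64, 9.80, 10.29 and 10.28 after αGalCer (3.76 ± 0.23, adjusted p = 1.07e-07). Il12rb2, the chain that lets T cells and NK cells answer IL-12, lay at 4.78, 5.22 and 4.82 after vehicle and 8.49, 8.44, 8.37 and 8.56 after αGalCer (3.52 ± 0.15, adjusted p = 8.96e-09). The groups were far apart for both. The receptors of IL-21 (Il21r, 3.21 ± 0.17), IL-4 (Il4ra, 2.22 ± 0.22) and IL-18 (Il18rap, 2.31 ± 0.23) rose. The leptin receptor Lepr (-1.17 ± 0.17) and Il17rb, a chain of the IL-25 receptor (-0.79 ± 0.27), fell, the latter call being lost without vehicle replicate 1 (-0.7) or 3 (-0.61) or αGalCer replicate 1 (-0.73), 2 (-0.77) or 3 (-0.81). Ifngr1, the binding chain for interferon gamma, fell by a small amount (-0.33 ± 0.07) while its partner Ifngr2 rose (0.69 ± 0.08).

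Below the receptors, 11 of 19 JAK, STAT and SOCS genes rose and 0 fell (median 0.44). Stat4, which acts after IL-12, lay at 5.13, 6.03 and 5.79 after vehicle and 9.19, 8.65, 9.16 and 9.31 after αGalCer (3.42 ± 0.27, adjusted p = 6.51e-07). Stat6, which acts after IL-4 and IL-13, rose by 0.18 ± 0.07 (adjusted p = 0.0444), but the call was lost when any 1 wild type array other than αGalCer replicate 3 was left out (0.15 to 0.20) and the sign turned with ribosomal protein scaling (-0.18). Stat3 rose by 0.51 ± 0.11. The feedback inhibitors Socs1 (2.81 ± 0.35), Socs3 (2.72 ± 0.36) and Cish (1.75 ± 0.55, not called without vehicle replicate 1, 2 or αGalCer replicate 1, at 1.49 to 1.77) rose, with αGalCer replicate 3 the lowest of its group for Socs1 and Socs3. Of 21 genes of the IRF, NF-kB and BATF families, 17 rose and 0 fell (median 1.16), led by Batf2 (3.22 ± 0.20), Irf5 (2.63 ± 0.20) and Irf8 (2.46 ± 0.18). Irf3 (-0.06, adjusted p = 0.688) and Rela (0.01, adjusted p = 0.959), which are mostly controlled by location and not by amount, did not pass the test.

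Genes that interferon gamma is known to switch on rose as a block. All but 1 of 11 interferon-inducible GTPases, which attack vacuoles that hold microbes, were higher (10 called, median 2.44). Gbp8 lay at 5.61, 6.41 and 6.06 after vehicle and 9.65, 10.02, 10.19 and 9.91 after αGalCer (3.92 ± 0.20, adjusted p = 4.81e-08), and Iigp1 at 6.81, 8.54 and 7.82 after vehicle and 10.68, 10.75, 10.96 and 11.09 after αGalCer (3.15 ± 0.39, adjusted p = 2.23e-05). Vehicle replicate 1 was the lowest array for both, and the groups did not overlap. These families hold near-identical copies, so the values of single members are uncertain, and members whose probe sets name several genes were not measured. The member not called was Mx2, a target of type I interferon (0.53 ± 0.22, adjusted p = 0.0695), whereas Mx1 was among the 10 called.

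Of 20 genes that load peptides on MHC class I, 18 rose and 0 fell (median 1.23). The subunits that turn a proteasome into an immunoproteasome led, with Psmb8 at 6.68, 7.55 and 7.11 after vehicle and 10.12, 9.85, 9.96 and 9.96 after αGalCer (2.86 ± 0.17, adjusted p = 1.01e-07), Psmb9 at 2.26 ± 0.16 and Psmb10 at 1.94 ± 0.11. Of the standard subunits that they replace, Psmb6 rose by 0.45 ± 0.12, and Psmb5 (-0.07 ± 0.12, adjusted p = 0.728) and Psmb7 (-0.15 ± 0.09, adjusted p = 0.213, called lower at -0.22 without αGalCer replicate 1) did not pass the test. Over the constitutive proteasome, 8 of 27 genes rose and 0 fell, with a median of 0.09 that turns to -0.27 when arrays are scaled to ribosomal proteins. The transporter Tap1 rose by 2.27 ± 0.15. B2m, the light chain of class I, changed by -0.06 ± 0.08 (adjusted p = 0.619).

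For MHC class II, 13 of 14 genes rose and 1 fell (median 1.13). Ciita, the switch for the class II genes, lay at 6.28, 7.03 and 6.65 after vehicle and 9.06, 9.18, 9.48 and 8.68 after αGalCer (2.45 ± 0.22, adjusted p = 1.76e-06). Ctss, the protease that frees class II for loading (2.95 ± 0.22), and the loading chain H2-DMa (2.37 ± 0.12) changed more than the class II chains H2-Aa (1.06 ± 0.09), H2-Ab1 (1.24 ± 0.12) and H2-Eb1 (1.20 ± 0.10), a difference between genes that was not tested. Rfxap, part of the complex that binds class II promoters, fell (-0.50 ± 0.09).

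To show what the promoters of both gene lists hold, 300 bases around the gene start (250 before, 50 after) were searched on both strands for the core of an interferon-stimulated response element, GAAANNGAAA, where N is any base. Promoters were in the RefSeq table (GRCm38.p6) for 5 of the 11 GTPases, and all 5 held a match. With so few promoters no share is drawn from this. Of 16 MHC class I processing genes with a promoter, 4 held a match (25.0%), against 3.49% of all 27025 promoters of the table and 13.5% of those of the cytosolic ribosomal proteins. The 4 were H2-T23, Erap1 (1.04 ± 0.17) and Psme1 (0.96 ± 0.09), which rose, and B2m, which was not called, while Psmb8, Psmb9, Psmb10 and Tap1 held no match in this window. Stretches of 61 bases that end before the gene start are shown for the 6 called genes with the largest rise among those with a match there, with every match in the stretch in capitals (TTTCNNTTTC is the same core on the other strand).
Gbp5, chr3:142496744-142496804, + strand: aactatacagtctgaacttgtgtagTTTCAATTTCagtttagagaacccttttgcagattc
Irgm1, chr11:48871421-48871481, - strand: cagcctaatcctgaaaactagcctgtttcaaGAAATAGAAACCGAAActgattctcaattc
Gbp2, chr3:142620579-142620639, + strand: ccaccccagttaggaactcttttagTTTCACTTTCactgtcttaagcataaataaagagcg
Gbp7, chr3:142530258-142530318, + strand: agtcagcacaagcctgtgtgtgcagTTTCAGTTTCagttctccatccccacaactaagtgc
H2-T23, chr17:36032790-36032850, - strand: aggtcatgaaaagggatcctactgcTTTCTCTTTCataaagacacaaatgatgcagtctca
Gbp3, chr3:142559980-142560040, + strand: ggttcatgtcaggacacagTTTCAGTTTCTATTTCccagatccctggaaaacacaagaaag
Counted from the gene start, the matches begin at -165 in Gbp5, -30 and -24 in Irgm1, -59 in Gbp2, -53 in Gbp7, -124 in H2-T23 and -45 and -39 in Gbp3, those of each pair overlapping. The same genes changed by 2.67, 2.47, 2.44, 1.90, 1.84 and 1.76. The 4 Gbp genes lie near each other on chromosome 3. A match is a run of letters and not a measured binding site.

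Transcription factors of lymphocytes rose. Of 22 measured lineage factors, 14 rose and 1 fell (median 1.13). Eomes, a factor of NK cells and killer T cells, lay at 4.58, 4.61 and 4.89 after vehicle and 8.76, 7.15, 8.31 and 8.64 after αGalCer (3.52 ± 0.33, adjusted p = 2.1e-06). Tbx21, the type 1 factor T-bet, rose by 2.66 ± 0.16, Runx3 by 2.77 ± 0.19 and Gata3, the type 2 factor, by 1.51 ± 0.23. Rora fell (-0.91 ± 0.17). T cell markers rose in 12 of 12 cases and NK cell markers in 9 of 9, with mean levels of 5.17 to 5.23 after vehicle and 7.08 to 7.53 after αGalCer for the T cell markers and 4.63 to 5.12 after vehicle and 7.17 to 8.29 after αGalCer for the NK cell markers. In whole tissue, more cells of a type and more RNA of those genes per cell cannot be told apart, nor can fewer cells and less RNA per cell.

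All 19 measured killer lectin receptors, with NKG2D ligands and Ncr1, rose (median 2.32), among them Klrg1 (3.26 ± 0.17), Klrc1 (2.93 ± 0.28) and the NK receptor gene Ncr1 itself (2.48 ± 0.40). The Klr genes lie in a cluster of close copies, so single values are uncertain. αGalCer replicate 2 was the lowest of its group for Klrg1, Eomes, Prf1 and Tigit, as it was for the NK cell markers as a whole (7.17 against 7.99 to 8.29).

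Receptors that start or stop T cell responses rose together, 25 of 29 higher and 1 lower (median 1.80). Inhibitory receptors were among them, Tigit at 5.17, 5.23 and 5.23 after vehicle and 9.60, 8.44, 9.39 and 9.89 after αGalCer (4.12 ± 0.25, adjusted p = 1.11e-07), Havcr2 at 2.50 ± 0.16, Ctla4 at 1.83 ± 0.17, Lag3 at 1.16 ± 0.17 and Pdcd1, which encodes PD-1, at 1.24 ± 0.13. The ligands of PD-1 rose, Pdcd1lg2 by 5.51 ± 0.15 and Cd274, which encodes PD-L1, by 2.16 ± 0.17. Activating receptors rose as well, Icos by 2.22 ± 0.17, Cd28 by 2.44 ± 0.15 and Cd226, the rival of TIGIT, by 1.65 ± 0.29. Cd200, a calming ligand of endothelium and other cells, fell (-1.45 ± 0.11) while its receptor on myeloid cells, Cd200r1, rose (2.91 ± 0.21).

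In the TNF superfamily, 22 of 38 members rose and 1 fell (median 0.63). Tnf lay at 4.86, 5.44 and 5.61 after vehicle and 8.82, 7.68, 7.30 and 8.52 after αGalCer (2.78 ± 0.33, adjusted p = 1.47e-05). Cd27 (2.32 ± 0.12), Cd40 (2.25 ± 0.15) and Tnfsf14, the ligand LIGHT (2.08 ± 0.22), rose. Of the TNF receptors, Tnfrsf1b, found on leukocytes, rose by 1.89 ± 0.19, and Tnfrsf1a, found on most cells, did not pass the test (0.21 ± 0.11, adjusted p = 0.15).

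Myeloid surface receptors made the next block. Of 34 Fc and paired immune receptors, 27 rose and 2 fell (median 1.75). Fcgr4, which binds IgG2 antibodies, lay at 5.32, 6.31 and 6.51 after vehicle and 10.49, 10.58, 10.54 and 10.34 after αGalCer (4.44 ± 0.26, adjusted p = 8.8e-08), and the high-affinity receptor Fcgr1 rose by 3.60 ± 0.23. The falls were Fcrls, a marker of resident macrophages, at 7.35, 8.27 and 8.57 after vehicle and 6.41, 5.43, 6.37 and 5.63 after αGalCer (-2.10 ± 0.28, adjusted p = 4.89e-05), and Cd300lg, an endothelial member of its family (-1.33 ± 0.13). Macrophage markers rose in 10 of 12 cases, with mean levels of 8.58 to 9.22 after vehicle and 10.34 to 10.54 after αGalCer.

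C-type lectins, which bind sugars of microbes, divided by member, 17 of 31 higher and 3 lower (median 1.45). Clec7a, the beta-glucan receptor dectin-1, lay at 5.92, 6.85 and 6.71 after vehicle and 10.61, 10.10, 10.16 and 10.56 after αGalCer (3.87 ± 0.22, adjusted p = 7.65e-08). The DC-SIGN family did not move as a unit, with Cd209e at 3.25 ± 0.33 and Cd209d at 0.86 ± 0.22 higher and Cd209c at -0.77 ± 0.16 lower, while Cd209a, the dendritic cell member, changed by 0.00 (adjusted p = 0.99). These are close copies too, and probe sets may read more than 1 of them. Clec1a, found on endothelium, fell (-1.07 ± 0.21).

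Of 35 toll-like receptor and inflammasome genes, 30 rose and 1 fell (median 1.67). Zbp1, a sensor of left-handed nucleic acid, lay at 6.49, 7.85 and 7.17 after vehicle and 10.63, 10.09, 10.07 and 10.50 after αGalCer (3.16 ± 0.25, adjusted p = 5.37e-07). Tlr13 (2.97 ± 0.34), Nlrp3 (2.68 ± 0.25), the adaptor Pycard (2.68 ± 0.21) and Casp1 (2.48 ± 0.27) rose, so that sensor, adaptor and protease of the inflammasome were all higher. Tlr5, the flagellin receptor, fell (-0.61 ± 0.15).

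Oxidant genes moved both ways. The phagocyte oxidase subunits Ncf4 (2.47 ± 0.26), Ncf1 (1.92 ± 0.19), Cybb (1.73 ± 0.25) and Cyba (1.66 ± 0.16) and its switch Rac2 (2.36 ± 0.21) rose. Nox4, the oxidase of adipocytes and vessels (-0.81 ± 0.19), the peroxidase Gpx3 (-1.03 ± 0.14) and catalase, Cat (-0.84 ± 0.07), fell. Cat lay at 12.46, 12.57 and 12.54 after vehicle and 11.63, 11.55, 11.87 and 11.66 after αGalCer. Over the list, 12 of 23 rose and 9 fell, with a median of 0.30 that turns to -0.06 with ribosomal protein scaling. The NRF2 targets were split, with Slc7a11 (2.85 ± 0.42), Hmox1 (2.26 ± 0.09), Txnrd1 (0.74 ± 0.17) and Srxn1 (0.67 ± 0.13) higher and Nqo1 (-0.57 ± 0.12) lower.

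Lysosomal genes rose, 23 of 31 with 1 lower (median 0.67). Ctsw, a protease of killer cells, lay at 5.07, 5.56 and 5.21 after vehicle and 8.91, 8.29, 8.48 and 8.60 after αGalCer (3.29 ± 0.20, adjusted p = 1.03e-07). Gla, the lysosomal alpha-galactosidase that removes an alpha-linked galactose of the kind αGalCer carries, lay at 7.64, 7.78 and 7.51 after vehicle and 9.63, 10.12, 9.75 and 9.56 after αGalCer (2.12 ± 0.16, adjusted p = 3.56e-07). The beta-galactosidase Glb1 rose by 0.44 ± 0.14, a call lost without vehicle replicate 1 (0.32) or αGalCer replicate 2 (0.35). Ctsf, which fell, lay at 7.84, 8.03 and 7.99 after vehicle and 6.54, 6.00, 6.41 and 6.35 after αGalCer (-1.63 ± 0.12, adjusted p = 2.92e-07). Of the acidifying pump's subunits, 10 of 18 were called higher and 1 lower, with a median of 0.28 that turns to -0.09 with ribosomal protein scaling. The macrophage and osteoclast forms Atp6v0d2 (3.65 ± 0.39) and Tcirg1 (1.89 ± 0.12) led it, and the common forms Atp6v0d1 (0.08 ± 0.09, adjusted p = 0.498) and Atp6v0a1 (0.05 ± 0.10, adjusted p = 0.734) did not pass the test.

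Genes of cell fusion rose beside these. Ocstamp and Dcstamp, which make macrophages fuse into giant cells and osteoclasts, rose by 3.63 ± 0.23 and 2.47 ± 0.20. Ocstamp lay at 5.75, 5.57 and 5.49 after vehicle and 9.96, 9.34, 8.79 and 8.84 after αGalCer (adjusted p = 1.24e-07), with no overlap. Adam8 (3.53 ± 0.21), Mmp9 (1.55 ± 0.28) and Tnfrsf11a, the receptor RANK (1.99 ± 0.15), rose too. Acp5, the tartrate-resistant phosphatase, fell (-0.96 ± 0.11), and Ctsk (0.24 ± 0.12, adjusted p = 0.123, called at 0.33 without αGalCer replicate 4) and Calcr (0.04 ± 0.14, adjusted p = 0.869), markers of mature osteoclasts, did not pass the test. The list had 11 of 19 members higher and 2 lower (median 0.49).

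Among 23 genes of lipid-associated macrophages, the foam cells of obese fat, 14 rose and 5 fell (median 0.81). Itgax, the integrin CD11c, lay at 6.26, 6.62 and 6.64 after vehicle and 10.17, 9.27, 9.55 and 9.57 after αGalCer (3.14 ± 0.23, adjusted p = 3.32e-07). Gpnmb (2.75 ± 0.40) and Trem2 (2.12 ± 0.22) rose. The members that fell included Apoe (-1.31 ± 0.19), Lpl (-0.95 ± 0.12), Cd36 (-0.73 ± 0.09) and Fabp5 (-0.52 ± 0.14), which are also made by adipocytes. Adipocyte markers, of which Lpl is 1, fell in 12 of 12 cases (mean levels 11.76 to 11.87 after vehicle and 9.96 to 10.70 after αGalCer). The part of adipocytes in the falls of this list was not tested. Timd4, a marker of resident macrophages, changed by -0.04 ± 0.17 (adjusted p = 0.9).

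Arginine carriers and several enzymes that use arginine rose. The arginine carriers Slc7a2 (3.42 ± 0.18) and Slc7a1 (1.37 ± 0.23) rose with Arg1, and so did Nos2, the inducible nitric oxide synthase that uses the same substrate (2.23 ± 0.28). Slc7a2 lay at 6.90, 7.12 and 7.61 after vehicle and 10.87, 10.78, 10.17 and 10.71 after αGalCer (adjusted p = 5.92e-08). The endothelial synthase Nos3 fell (-1.59 ± 0.20). The 2 steps of creatine synthesis went opposite ways, with Gatm at 2.95 ± 0.16 and Gamt at -1.38 ± 0.11. Gatm lay at 8.25, 8.97 and 8.63 after vehicle and 11.63, 11.81, 11.44 and 11.36 after αGalCer, and Gamt at 10.50, 10.87 and 10.72 after vehicle and 9.47, 9.20, 9.50 and 9.09 after αGalCer, with no overlap in either gene. Over the list, 10 of 20 rose and 4 fell (median 0.44).

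Among lipid mediators, 14 of 31 genes rose and 8 fell, with a median of 0.31 that turns to -0.05 with ribosomal protein scaling. Thromboxane synthase, Tbxas1, lay at 6.80, 7.96 and 7.71 after vehicle and 10.62, 10.68, 10.55 and 10.56 after αGalCer (3.11 ± 0.21, adjusted p = 2.19e-07). The leukotriene receptors Cysltr2 (2.64 ± 0.15) and Ltb4r1 (2.44 ± 0.21) rose. Ptger3, the prostaglandin E2 receptor that holds back lipolysis in adipocytes, lay at 9.29, 9.38 and 9.13 after vehicle and 6.27, 5.23, 6.83 and 6.71 after αGalCer (-3.00 ± 0.30, adjusted p = 3.38e-06). Ptgds (-2.19 ± 0.66, -1.35 in knockout) and Alox12 (-1.81 ± 0.48, -1.37 in knockout) fell and were lowest in vehicle replicate 2 among the vehicle arrays, as the duct markers were, and their changes were not called different from knockout (adjusted p = 0.609 and 0.727). Without vehicle replicate 3, Ptgds changed by -1.37 and was not called. Their relation to that tissue was not tested.

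Complement genes were divided, 13 of 26 higher and 4 lower (median 0.48). The C1qa chain of macrophages (1.87 ± 0.15) and the receptors C3ar1 (1.91 ± 0.19) and C5ar1 (1.79 ± 0.17) rose. Masp1, a protease of the lectin pathway (-1.44 ± 0.10), and Cd46, a regulator (-1.01 ± 0.23), fell. Adhesion molecules showed the same division, 12 of 24 higher and 6 lower. The leukocyte integrins Itgal (3.02 ± 0.26) and Itgb2 (2.83 ± 0.20) rose with Icam1, which they bind on endothelium (1.86 ± 0.17), and Vcam1, the endothelial partner of other integrins (1.30 ± 0.09), and the junction proteins Jam2 (-1.66 ± 0.15), Esam (-1.46 ± 0.10) and F11r (-0.95 ± 0.13) fell. The selectins of activated endothelium, Sele (0.02 ± 0.13, adjusted p = 0.931) and Selp (0.10 ± 0.21, adjusted p = 0.753), did not pass the test.

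Cell division genes rose almost without exception. Of 40 genes of mitosis and the kinetochore, all 40 rose (median 2.12), and of 37 genes of DNA replication, 36 rose and 0 fell (median 1.52). Bub1, a kinase of the spindle checkpoint, lay at 4.88, 5.92 and 5.77 after vehicle and 7.44, 9.16, 8.82 and 8.43 after αGalCer (2.94 ± 0.37, adjusted p = 2.51e-05). Rrm2, which makes deoxynucleotides, lay at 6.22, 6.72 and 6.71 after vehicle and 9.13, 9.33, 9.13 and 9.15 after αGalCer (2.63 ± 0.15, adjusted p = 7.72e-08). The vehicle arrays differed in the mitotic gene, with replicate 1 lowest, and agreed better in the replication gene. The member of the replication list that was not called was Orc6 (0.16 ± 0.10, adjusted p = 0.24). Which cells divided cannot be told from whole tissue.

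Genes of mitosis and of replication are known to be held by different promoter elements. The same 300 bases were searched on both strands for the cell cycle genes homology region (CHR), TTTGAA, the element through which mitotic genes are kept silent in resting cells. A match was found in 26 of the 34 mitosis promoters in the table (76.5%), in 5 of 32 replication promoters (15.6%) and in 18.1% of all 27025 promoters. The mean GC content of the sets was 58.0%, 59.3% and 53.6%. Position differed too. From 60 bases before to 50 after the gene start, 70.6% of the mitosis promoters held a match, against 5.46% of all promoters, and 75.8% of the 33 matches of the mitosis list fell there against 27.5% of 5632 matches over all promoters. This window was not in the plan, which named only the 300 bases, and it covers the steps where mitosis matches were most frequent. Its shares are a description only. For display, mitosis genes of a given chromosome were left out. The 5 with the largest rise among the rest with a match before the gene start were taken. Stretches of 61 bases that end before the gene start are shown for them, with the match in capitals (TTCAAA is the same element on the other strand).
Top2a, chr11:99024190-99024250, - strand: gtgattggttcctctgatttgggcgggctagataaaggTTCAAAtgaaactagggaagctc
Kif2c, chr4:117178842-117178902, - strand: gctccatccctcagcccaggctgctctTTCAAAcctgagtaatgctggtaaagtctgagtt
Ccnb2, chr9:70421688-70421748, - strand: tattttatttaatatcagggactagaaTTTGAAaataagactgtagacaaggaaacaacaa
Cdk1, chr10:69352913-69352973, - strand: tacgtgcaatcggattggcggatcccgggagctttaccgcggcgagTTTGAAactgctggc
Kif11, chr19:37376321-37376381, + strand: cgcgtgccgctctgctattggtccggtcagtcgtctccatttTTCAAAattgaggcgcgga
The matches begin at -23, -103, -167, -15 and -19 from the gene start, in that order. The genes encode topoisomerase II (Top2a, 2.65 ± 0.31), a kinesin of the centromere (Kif2c, 2.59 ± 0.19), cyclin B2 (Ccnb2, 2.34 ± 0.20), the mitotic kinase (Cdk1, 2.30 ± 0.18) and a spindle kinesin (Kif11, 2.30 ± 0.30). Matches of this and the other motifs may overlap each other and were counted separately, and none is a measured binding site.

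**Figure D3:**
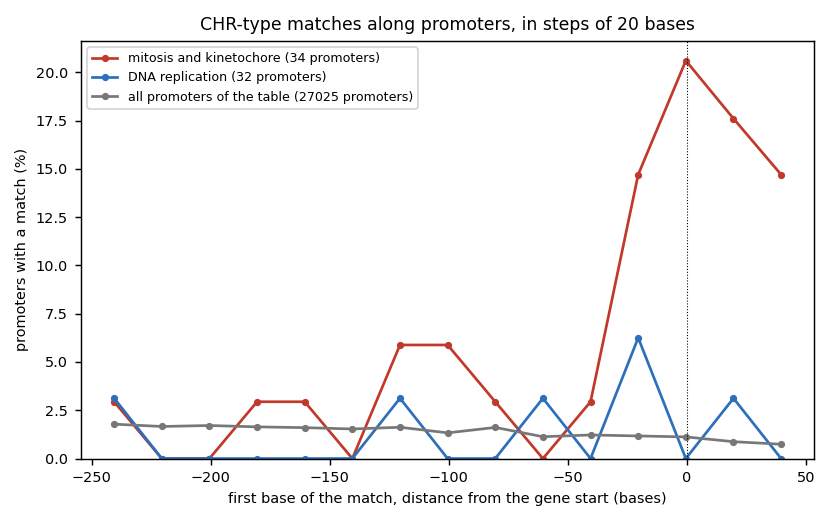
Percent of promoters with a TTTGAA match on either strand (vertical) whose first base falls in each step of 20 bases, by distance from the gene start (horizontal, bases), for 34 mitosis promoters, 32 replication promoters and 27025 promoters of the table. The mitosis line rises above the others around the gene start, and the line of all promoters stays low throughout.

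Ribosome biogenesis genes, which build ribosomes in growing cells, rose by smaller amounts, 28 of 29 higher and 0 lower (median 0.75). Myc, which drives them, lay at 7.93, 7.75 and 7.91 after vehicle and 10.19, 9.73, 9.15 and 9.73 after αGalCer (1.84 ± 0.18, adjusted p = 2.56e-06). Of the cytosolic ribosomal proteins, 53 of 65 rose (median 0.36), which scaling to their own mean removes (-0.01), and many have near-identical pseudogenes. In the unfolded protein response, 15 of 27 genes rose and 1 fell (median 0.46). Sdf2l1, a folding factor of the endoplasmic reticulum, lay at 7.87, 8.28 and 8.28 after vehicle and 10.60, 10.71, 10.74 and 10.66 after αGalCer (2.53 ± 0.12, adjusted p = 3.95e-08). Creld2 (1.72 ± 0.15), Manf (1.16 ± 0.11) and Hyou1 (1.08 ± 0.16) rose, and Herpud1 (-0.47 ± 0.10), a target of the same response, fell.

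Adipocyte genes fell far more often than they rose. Of 32 adipogenic transcription factors, 24 fell and 2 rose (median -0.98). Klf15, a glucocorticoid-induced factor, lay at 8.75, 8.71 and 8.64 after vehicle and 6.48, 5.76, 7.03 and 6.53 after αGalCer (-2.25 ± 0.21, adjusted p = 2.16e-06). Pparg, the main adipocyte factor, lay at 11.81, 11.71 and 11.58 after vehicle and 10.60, 10.43, 10.87 and 10.79 after αGalCer (-1.03 ± 0.10, adjusted p = 4.38e-06). Cebpa fell (-1.29 ± 0.12) and Cebpb, an early factor that macrophages also make, rose (1.20 ± 0.14). None of these 4 genes overlapped between the groups.

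Triglyceride synthesis fell in 14 of 18 genes and rose in 3 (median -1.28). Pck1, which feeds glycerol synthesis in fat, lay at 11.28, 11.81 and 11.57 after vehicle and 8.06, 8.19, 9.54 and 8.26 after αGalCer (-3.04 ± 0.29, adjusted p = 2.28e-06). Lpin1 fell (-2.27 ± 0.15) where its relative Lpin2 rose (0.98 ± 0.16). The acyl-CoA synthetases Acsl5 (1.09 ± 0.08) and Acsl4 (0.94 ± 0.23) rose. Dgat1 (-1.73 ± 0.15) and Dgat2 (-1.33 ± 0.20), the last step, both fell.

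Of 24 genes of lipolysis and the droplet coat, 18 fell and 3 rose (median -0.95). The glycerol channel Aqp7 lay at 11.97, 11.93 and 11.94 after vehicle and 9.96, 9.97, 10.57 and 9.74 after αGalCer (-1.89 ± 0.14, adjusted p = 3.95e-07). The adipocyte coat proteins Plin1 (-0.97 ± 0.10) and Plin4 (-1.02 ± 0.16) fell, and Plin2, the coat of droplets in macrophages and other cells, rose, with 11.37, 11.26 and 11.07 after vehicle and 12.11, 12.34, 12.15 and 12.06 after αGalCer (0.93 ± 0.09, adjusted p = 2.21e-06). Hilpda, which inhibits the lipase ATGL, rose (1.74 ± 0.20), whereas G0s2, which inhibits the same lipase, fell (-1.10 ± 0.19). The lipase itself, Pnpla2, fell (-0.97 ± 0.11).

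Lipid uptake was divided in the same way, 12 of 22 lower and 2 higher (median -0.57). Gpihbp1, which holds lipoprotein lipase on capillaries, lay at 10.18, 9.99 and 9.91 after vehicle and 8.23, 7.74, 8.02 and 7.85 after αGalCer (-2.07 ± 0.11, adjusted p = 5.92e-08), and Vldlr, the VLDL receptor, fell too (-2.13 ± 0.13). The 2 members that rose, Msr1 (3.35 ± 0.36) and Olr1 (2.91 ± 0.44), are scavenger receptors of macrophages. Slc27a2 changed by -2.19 in wild type and -2.14 in knockout (adjusted p of the difference = 0.976), and Cideb of the droplet list by -1.97 and -2.14 (0.931). The call of Cideb was lost without vehicle replicate 1 (-1.56) or 3 (-1.91). Both genes were lowest in vehicle replicate 2 among the vehicle arrays, as the duct markers were, and the part of that tissue was not tested.

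Fatty acid oxidation fell in 28 of 32 genes (median -0.80). Acadm, the medium-chain dehydrogenase, lay at 11.46, 11.48 and 11.49 after vehicle and 9.99, 9.78, 10.24 and 9.96 after αGalCer (-1.49 ± 0.10, adjusted p = 2.31e-07). Ppara fell (-1.61 ± 0.12), and the only rise was Cpt1a, at 10.63, 10.55 and 10.36 after vehicle and 10.71, 10.88, 10.83 and 10.59 after αGalCer, a small difference with overlapping groups (0.24 ± 0.09, adjusted p = 0.0467), whose call was lost without vehicle replicate 2 or 3 or αGalCer replicate 1, 2 or 3 (0.16 to 0.26) and whose sign turned with ribosomal protein scaling (-0.13). Breakdown of branched-chain amino acids fell in 21 of 23 genes (median -0.97), with Hibch at -1.93 ± 0.19 and Mccc2 at -1.83 ± 0.15. At its first step, the mitochondrial Bcat2 fell (-0.79 ± 0.10) and the cytosolic Bcat1, known from activated immune cells, rose, with 7.21, 6.90 and 6.89 after vehicle and 8.63, 8.41, 7.79 and 8.26 after αGalCer (1.27 ± 0.18, adjusted p = 6.15e-05).

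The citrate cycle and the entry of pyruvate fell in 24 of 30 genes and rose in 2 (median -0.50). Acod1, which diverts the cycle to itaconate in macrophages, lay at 4.82, 6.08 and 5.77 after vehicle and 10.31, 9.45, 8.38 and 10.41 after αGalCer (4.08 ± 0.46, adjusted p = 1.07e-05). Idh3a lay at 11.35, 11.20 and 11.02 after vehicle and 9.65, 9.52, 9.75 and 9.60 after αGalCer (-1.56 ± 0.10, adjusted p = 1.24e-07). The succinate dehydrogenase chains Sdhb (-0.14 ± 0.11, adjusted p = 0.359) and Sdhd (-0.04 ± 0.11, adjusted p = 0.83) did not pass the test.

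Genes of glycolysis and the pentose phosphate path went both ways, 11 of 26 higher and 8 lower, with a median of 0.22 that turns to -0.14 with ribosomal protein scaling. Hk3, the hexokinase of myeloid cells, lay at 5.01, 5.46 and 5.60 after vehicle and 9.44, 9.54, 9.22 and 9.16 after αGalCer (3.98 ± 0.16, adjusted p = 6.96e-09), and Hk2, that of fat and muscle, did not pass the test (-0.38 ± 0.17, adjusted p = 0.0876, called at -0.56 without αGalCer replicate 1). Pfkp rose (0.77 ± 0.14) and Pfkm fell (-0.58 ± 0.20), the latter call being lost when any 1 vehicle array, or αGalCer replicate 1 or 4, was left out (-0.62 to -0.53). The glucose carrier Slc2a1 rose (1.71 ± 0.25) and the insulin-sensitive Slc2a4 fell, with 10.10, 10.08 and 10.06 after vehicle and 7.43, 6.69, 8.05 and 7.53 after αGalCer (-2.66 ± 0.23, adjusted p = 1.29e-06). Of 20 hypoxia response genes, 7 rose and 9 fell, with Car9 at 1.16 ± 0.16 and Lox at 1.00 ± 0.16 higher and Bnip3 at -1.37 ± 0.14 and Ddit4 at -1.65 ± 0.11 lower.

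Cholesterol synthesis genes fell more often than they rose, 12 of 22 against 3 (median -0.41), with Sc5d (-1.44 ± 0.12) and Insig1 (-1.23 ± 0.12) lower. The exporters of cholesterol moved apart, Abca1 at 10.66, 10.90 and 10.91 after vehicle and 9.42, 9.08, 9.89 and 9.86 after αGalCer (-1.26 ± 0.17, adjusted p = 5.89e-05) and Abcg1 at 8.91, 9.17 and 9.08 after vehicle and 10.03, 9.98, 10.26 and 9.95 after αGalCer (1.00 ± 0.11, adjusted p = 9.62e-06). Both are targets of the LXR receptors and neither overlapped between the groups. Abca8a fell most of the efflux list (-2.56 ± 0.29), which had 5 of 15 members higher and 9 lower.

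Hormones and receptors of adipocytes fell. Of 25 adipokine genes, 15 fell and 4 rose (median -0.97), and of 22 receptors coupled to G proteins, 14 fell and 2 rose (median -1.11). Lep, leptin, lay at 11.85, 11.70 and 11.53 after vehicle and 10.35, 9.09, 10.14 and 9.85 after αGalCer (-1.83 ± 0.22, adjusted p = 2.14e-05), and Adipoq, adiponectin, at 12.03, 12.29 and 12.09 after vehicle and 10.88, 9.73, 11.10 and 10.81 after αGalCer (-1.50 ± 0.24, adjusted p = 0.00019). Rbp4, the retinol carrier, fell (-2.23 ± 0.20). Metrnl, a secreted protein also made by activated macrophages, rose (1.65 ± 0.13). Of the receptors, P2ry14, for UDP-glucose, rose (2.48 ± 0.22), and the succinate receptor Sucnr1 fell (-1.78 ± 0.22).

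Of 35 nuclear receptors, 15 fell and 4 rose (median -0.21). Vdr, the vitamin D receptor, stood apart from the others, with 5.60, 5.39 and 5.37 after vehicle and 9.58, 8.66, 8.39 and 8.87 after αGalCer (3.42 ± 0.24, adjusted p = 2.57e-07). The next rise in the list was Nr4a3 (0.87 ± 0.24). The estrogen receptor Esr1 (-1.71 ± 0.17) and Nr2f2 (-1.63 ± 0.15) fell. Enzymes that oxidise or conjugate fell in 28 of 40 cases and rose in 6 (median -0.99), among them Cyp2e1 (-2.96 ± 0.37) and Adh1 (-2.70 ± 0.22). The retinaldehyde dehydrogenases went opposite ways, with Aldh1a2 at 1.96 ± 0.26 and Aldh1a3 at 1.40 ± 0.41 (1.29 and not called without vehicle replicate 1) higher and Aldh1a1, the form of adipocytes, at -1.40 ± 0.14.

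Of 27 iron genes, 5 were higher (18.5%) and 8 lower (29.6%), with a median of -0.09. These shares lay near those over all genes, 19.8% and 22.0%. Heme oxygenase, Hmox1, lay at 8.72, 8.86 and 8.80 after vehicle and 11.03, 11.07, 10.93 and 11.17 after αGalCer (2.26 ± 0.09, adjusted p = 5.84e-09), and the transferrin receptor Tfrc rose by 1.96 ± 0.19. Heph, a ferroxidase that helps iron leave cells, fell, with 8.59, 8.59 and 8.69 after vehicle and 6.61, 5.55, 6.97 and 6.53 after αGalCer (-2.21 ± 0.24, adjusted p = 8.83e-06). The exporter Slc40a1 (-0.09 ± 0.17, adjusted p = 0.738) and the ferritin heavy chain Fth1 (-0.10 ± 0.06, adjusted p = 0.177) did not pass the test.

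In the stroma, of 28 collagen chains, 16 fell and 0 rose (median -0.49). The fibril chains Col1a1 (0.03 ± 0.13, adjusted p = 0.905), Col1a2 (0.03 ± 0.12, adjusted p = 0.888) and Col3a1 (-0.17 ± 0.16, adjusted p = 0.427, called lower at -0.37 without vehicle replicate 1) did not pass the test. The basement membrane chains Col4a1 (-0.82 ± 0.15), Col4a2 (-0.90 ± 0.15) and Col15a1 fell, the last with 11.19, 11.14 and 10.95 after vehicle and 9.55, 8.79, 9.25 and 9.13 after αGalCer (-1.91 ± 0.13, adjusted p = 2.59e-07). Col8a1 (-1.70 ± 0.16), a network chain of vessel walls, and Col14a1 (-0.99 ± 0.20), a chain that binds fibrils, fell as well. Pericyte and smooth muscle markers fell in 12 of 12 cases (mean levels 9.49 to 9.63 after vehicle and 7.56 to 8.11 after αGalCer).

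Among 27 small leucine-rich proteoglycan and elastic fibre genes there were 20 falls and 1 rise (median -1.13). Fibromodulin, Fmod, lay at 8.95, 8.81 and 8.93 after vehicle and 6.87, 5.22, 6.17 and 6.28 after αGalCer (-2.76 ± 0.31, adjusted p = 1.02e-05), and elastin, Eln, fell (-2.09 ± 0.18). Matrix proteases and inhibitors were divided, 15 of 33 higher and 10 lower, with a median of 0.04 that turns to -0.33 with ribosomal protein scaling. The inhibitors of these proteases did not move together. Timp1, which leukocytes and activated stroma make, lay at 6.28, 8.69 and 7.81 after vehicle and 11.76, 11.64, 11.42 and 11.74 after αGalCer (4.05 ± 0.42, adjusted p = 5.79e-06). Timp4, the form of adipocytes, lay at 11.22, 10.68 and 10.84 after vehicle and 9.41, 7.84, 8.63 and 8.20 after αGalCer (-2.39 ± 0.27, adjusted p = 1.2e-05). Timp3 fell (-1.07 ± 0.09) and Timp2 changed by 0.01 (adjusted p = 0.922).

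Growth signals of the stroma fell. In the IGF system, 19 of 23 genes fell and 1 rose (median -1.07), with the binding protein Igfbp5 at -2.09 ± 0.13 and Igf2 at -1.96 ± 0.17, while Igf1 changed by -0.12 ± 0.09 (adjusted p = 0.289). In the TGF-beta and BMP system, 25 of 38 fell and 4 rose. Tgfb1 rose (1.21 ± 0.14) and Tgfb2 (-1.26 ± 0.16) and Tgfb3 (-1.25 ± 0.15) fell. Inhba, the activin chain, rose (1.52 ± 0.29), and Bmp4 (-1.99 ± 0.18), Bmp6 (-2.04 ± 0.13) and the activin-type receptor of adipocytes, Acvr1c (-2.20 ± 0.25), fell. Of 39 Wnt genes, 18 fell and 1 rose, and the targets Axin2 (-1.58 ± 0.25) and Nkd1 (-2.34 ± 0.16) were among the falls. Of 24 genes of adipose progenitors, 15 fell and 4 rose (median -0.62), with Pi16 at -1.19 ± 0.17 and Dpp4 at -1.01 ± 0.25.

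Vessel genes fell. Of 36 vessel signals, 23 fell and 1 rose (median -0.97). Kdr, the main VEGF receptor, lay at 9.75, 9.50 and 9.39 after vehicle and 7.09, 6.79, 6.99 and 7.03 after αGalCer (-2.57 ± 0.10, adjusted p = 4.85e-09). Of the other VEGF receptors, Flt4 fell (-1.71 ± 0.20) and Flt1 did not pass the test (-0.17 ± 0.15, adjusted p = 0.417, called lower at -0.33 without αGalCer replicate 1). Vegfa (-1.18 ± 0.14) and Vegfb (-1.79 ± 0.11) fell, as did the Notch ligand Dll4 (-2.01 ± 0.21) and its target Hey1 (-1.92 ± 0.17). Endothelial markers fell in 17 of 19 cases, with mean levels of 9.15 to 9.34 after vehicle and 7.72 to 8.22 after αGalCer. Lyve1, which lymphatic endothelium shares with macrophages, was the marker that rose (1.31 ± 0.17), and Prox1, the lymphatic factor, fell (-1.72 ± 0.19).

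Of 29 imprinted genes, which are read from the copy of 1 parent, 14 fell and 3 rose (median -0.44). Peg3 lay at 8.52, 8.71 and 8.83 after vehicle and 5.85, 6.08, 6.52 and 6.14 after αGalCer (-2.54 ± 0.20, adjusted p = 6.94e-07). Among genes read from the father's copy, Nnat, Mest, Peg3, Igf2 and Plagl1 (-1.75 ± 0.27) fell. Of genes read mainly from the mother's copy, the growth inhibitors Grb10 (-0.80 ± 0.09) and Cdkn1c (-0.65 ± 0.09) also fell, and Asb4 rose (1.78 ± 0.15). The other rises of the list were Ascl2 (0.75 ± 0.21) and Igf2r (0.25 ± 0.08). Of the 29 genes, 12 were not called, so the named members do not stand for either parent's copy as a whole.

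Among serpins, the granzyme B inhibitors Serpinb9 (1.57 ± 0.16) and its copy Serpinb9b (3.15 ± 0.19) rose, and Serpina1b had the largest fall (-3.39 ± 0.65). The list had 8 of 20 members higher and 4 lower, with a median of 0.03 that turns to -0.34 with ribosomal protein scaling. Of 34 amino acid and peptide carriers, 15 rose and 9 fell (median 0.10, or -0.27 with that scaling). Slc15a3, a lysosomal carrier of peptides in myeloid cells, lay at 5.16, 6.00 and 5.95 after vehicle and 9.77, 9.30, 8.92 and 9.40 after αGalCer (3.65 ± 0.23, adjusted p = 1.55e-07). Slc7a5 (1.86 ± 0.42) and Slc7a8 (2.36 ± 0.13), carriers of large neutral amino acids, rose, and the glutamate carrier Slc1a1 fell (-2.54 ± 0.18).

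**Figure D4:**
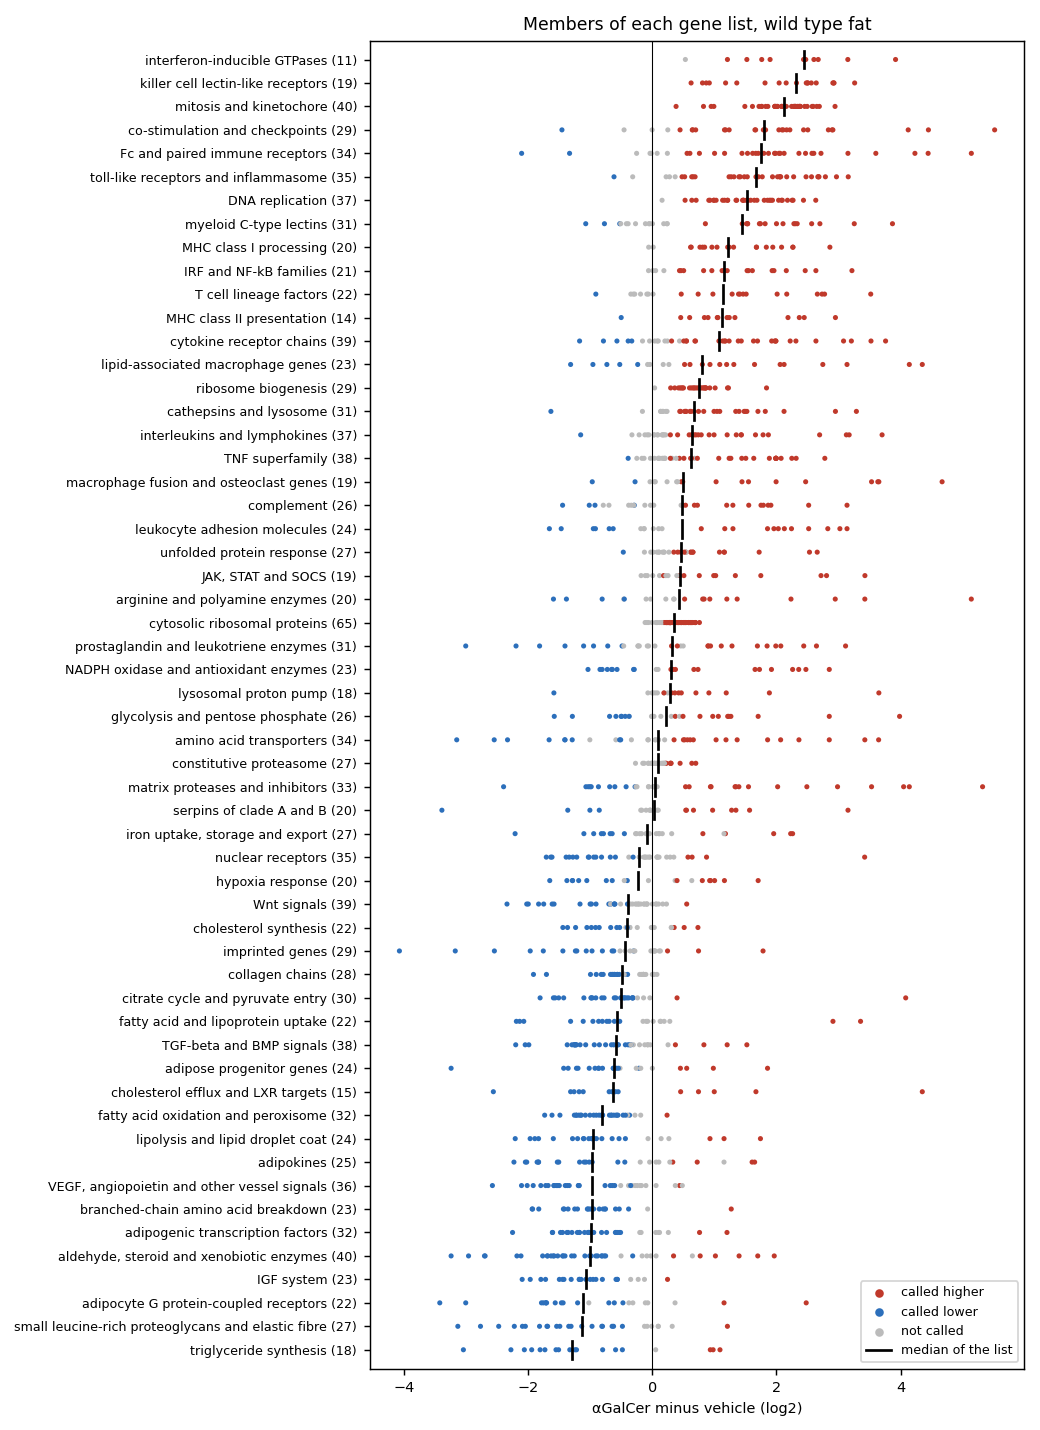
Change after αGalCer in wild type fat (log2, horizontal) of each measured member of the 56 gene lists (vertical, number of measured members in brackets), in red where called higher, blue where called lower and grey where not called, with a bar at the median of the list. Interferon-inducible GTPases have the highest median (2.44) and triglyceride synthesis the lowest (-1.28).

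Cell type markers were read on the same arrays. Besides those given above, neutrophil markers rose in 8 of 13 cases (mean levels 5.09 to 5.42 after vehicle and 6.06 to 7.05 after αGalCer) and dendritic cell markers in 8 of 12, with 2 lower. Eosinophil markers rose in 2 and fell in 2 of 8 cases, with mean levels of 4.52 to 4.89 after vehicle and 4.75 to 4.91 after αGalCer. Mast cell markers rose in 1 and fell in 3 of 11, mesothelium markers in 1 and 4 of 13, and erythroid markers in 1 and 1 of 4. Nerve and Schwann cell markers fell in 2 of 8. Over all genes 19.8% were called higher and 22.0% lower. The eosinophil and erythroid shares, 25.0% higher and 25.0% lower in each, lay near these. So did the falls of mast cell (27.3%) and nerve markers (25.0%). B cell and plasma cell markers rose in 4 of 11 (5.16 to 5.29 after vehicle and 5.45 to 5.58 after αGalCer), and lymph node stroma in 1 of 8 (5.43 to 5.59 after vehicle and 5.50 to 5.83 after αGalCer). None of the 15 skeletal muscle markers was called, although αGalCer replicate 2 lay at 5.58 against 4.77 to 4.96 in the others. The part of these cells in the changes of single genes was not tested.

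**Figure D5:**
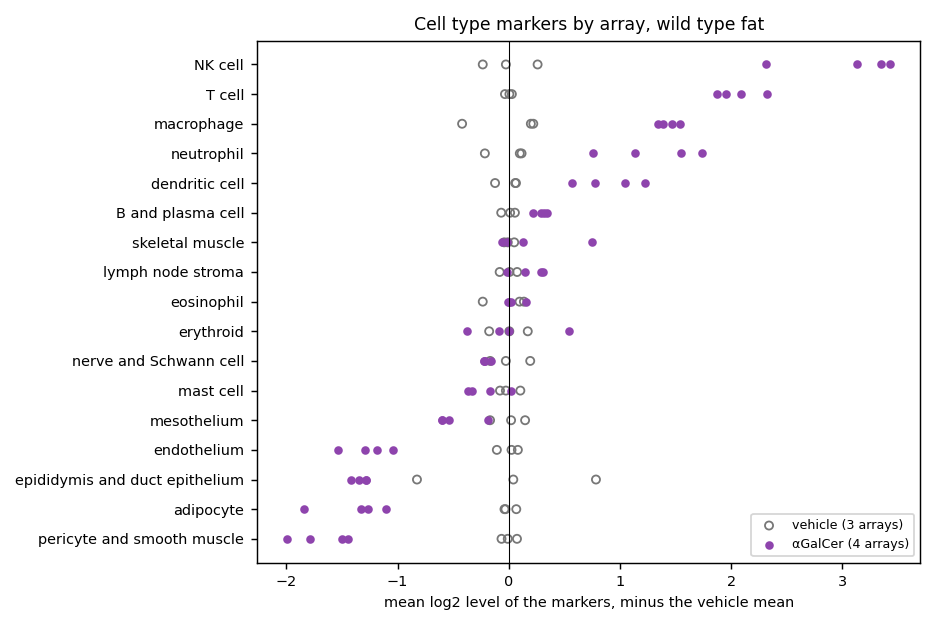
Mean log2 level of the markers of 17 cell types in each wild type array (horizontal, minus the mean of the vehicle arrays), with open circles for the 3 vehicle arrays and filled circles for the 4 αGalCer arrays. Markers of NK cells, T cells and macrophages lie to the right in all 4 αGalCer arrays and those of adipocytes, endothelium and pericytes to the left, while the epididymis and duct markers spread over the vehicle arrays.

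In knockout fat the same injection gave 0.00% of genes called by limma, with 1281 genes (6.81%) at an unadjusted p under 0.05, and with array quality weights 322 genes were called. The effect of αGalCer differed between the genotypes for 5309 genes (28.2%) by the test of the difference itself, and 5204 of these were among the genes called in wild type. That test uses the same wild type values, so its overlap with the wild type calls is not independent support. Of the 2808 genes called at least 2-fold in wild type, 2439 differed. Of the rest, 148 changed at least 2-fold in the same direction in knockout fat, as the 9 falls above did. Vdr changed by 0.09 in knockout (adjusted p of the difference = 2.65e-05), Plk1 by 0.19 against 2.69 in wild type (4.4e-05), Kdr by 0.13 (3.12e-07) and Pck1 by 0.43 (6.36e-05). Atp6v0d2 changed by 1.54 in knockout against 3.65 in wild type (0.0131).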

How the data were processed

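Epididymal fat RNA of 13 mouse samples was hybridised to Affymetrix arrays, 3 wild type after vehicle, 4 wild type after αGalCer, 3 knockout after vehicle and 3 knockout after αGalCer, grouped by sample title. The authors deposited log2 values made with RMA, per the submitters' processing notes (background correction, quantile normalisation and a summary over probes). For the RMA version, probe set definition and genome build, the sources used here give nothing. RMA forces all arrays to 1 distribution, so a shift of most genes in 1 direction would be partly removed. Array data carry no read depth, so precision is limited by how many arrays there are.

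Of 35556 probe sets, 21218 had 1 gene symbol, 1881 several and 12457 none. Symbols were updated through the Entrez identifier (21185) or accession (3), and 30 kept the symbol of the array annotation. The probe set with the highest mean stood for each of 18818 genes (1388 had more than 1).

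The deposited log2 values were fitted with limma 3.58.1 in R 4.3.3 (lmFit with a mean per group over all 13 arrays, eBayes with the intensity trend, 9 residual degrees of freedom), two-sided, with Benjamini-Hochberg adjustment over 18818 genes and calls at 0.05. The knockout arrays enter only the estimate of spread and the difference between genotypes. On simulated data for the wild type comparison (18818 genes), 85% of 100 genes changed by a log2 of 1 and 99% of 100 changed by a log2 of 2 were called. Of the unchanged genes, 8 were called. Only these few genes were changed, with independent normal noise, and far more genes were called in the real data. The adjusted threshold of the simulation was therefore stricter, and its shares do not carry over directly. Tables and figures were made with Python 3.11.15, pandas 2.3.3 and matplotlib 3.10.9.

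Genes were named by rule: the 20 largest rises and 20 largest falls among called genes whose groups do not overlap, without RIKEN, Gm, LOC and predicted genes, and up to 3 called members with the largest rise and 3 with the largest fall of each list. Other list members are examples chosen after their values were seen. The members, the 73 lists and the rules were chosen with earlier results of these data known, so no list is independent evidence of its direction. Promoters (300 bases) came from RefSeq for GRCm38.p6, 1 for each symbol. Alternatives were other variance models, array weights, scalings, probe set rules, a filter on dim genes, the replicate number as a block and each wild type array left out.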

Additional observations from a re-analysis of the deposited data

Results flagged for a closer look

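The effect of αGalCer differed between wild type and knockout fat for 5309 of 18818 genes by limma's test of the difference (adjusted p under 0.05).

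In the group of 4 αGalCer arrays, 333 named genes were tested for an array apart. By Dixon's test, 16 of them had 1 array apart from the other 3, with a gap over the range of the group of at least 0.829. Chance alone flags about 1 in 20 groups, which is about the share seen here. The count therefore sets no array and no gene apart, and the values below are only a description. Replicate 2 was the array apart for Apoe (0.841), Dgat2 (0.829), G0s2 (0.866), Lepr (0.832), Lyve1 (0.862), Mccc2 (0.895), Ncr1 (0.958), Rnase2a (0.863) and Rrm2 (0.909). Replicate 1 was apart for Dcstamp (0.85), Gbp7 (0.95), Tbx21 (0.85) and Tfrc (0.862). Replicate 3 was apart for Ifngr1 (0.931), Ncf4 (0.882) and Pck1 (0.866). The direction differed between genes. Replicate 2 was the low array for the NK receptor gene Ncr1 (6.98 against 8.46 to 8.53), for Apoe (10.80 against 11.65 to 11.81) and for the lymphatic and macrophage gene Lyve1 (10.75 against 11.40 to 11.51), and the high array for Rrm2 (9.33 against 9.13 to 9.15). Replicate 3 was the high array for Pck1 (9.54 against 8.06 to 8.26). Replicate 1 was the low array for the transferrin receptor gene Tfrc (7.90 against 8.62 to 8.73) and the high array for Dcstamp (7.67 against 6.72 to 6.87). None of these arrays touched the vehicle group for the gene concerned.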

How the results depend on the processing

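The choice of scale and a minimum fold in the test changed the counts most. With each array scaled to its cytosolic ribosomal proteins, 2011 genes were called higher and 11051 lower, 927 of them at least 2-fold higher and 2636 at least 2-fold lower, and 14006 genes did not overlap. That scaling rests on the assumption that ribosomal protein RNA stayed level. It turned the sign of Atp6v0a1 (-0.32), Atp6v0d1 (-0.28), Col1a1 (-0.34), Col1a2 (-0.34), Cpt1a (-0.13), Il12a (-0.07), Rela (-0.36), Stat6 (-0.18) and Timp2 (-0.35). It moved the call counts of 58 list results by over 1.5 times, and 5 genes were called in the opposite direction. Other choices also moved list counts by that much, 16 without vehicle replicate 3, 14 without αGalCer replicate 1, 12 and 11 without vehicle replicates 1 and 2, 6 to 9 without the other αGalCer arrays, 10 with the filter on dim genes, 8 with the replicate block, 8 in the 7 wild type arrays alone, 7 with array weights and 1 to 3 with the other variance models, other normalisations and array medians. Genes not called in the report gained a call with quantile or cyclic loess normalisation (Il17f at 0.23 to 0.26, Mx2 at 0.62, Tnfrsf1a at 0.30) or with the replicate block (Ctsk at 0.33, Igf1 at -0.19). Tested against a fold of 1.5 with limma's treat, 1363 genes were called higher and 1256 lower, a stricter question by construction. With the other variance models, array weights, the filter on dim genes, quantile or cyclic loess normalisation, array medians and the mean of all probe sets, the counts over all genes stayed within 1.5 times. The count that differed between genotypes was recomputed with the other variance models, array weights and the filter only (5283 to 7225). Leaving out each wild type array in turn gave 3260 to 3677 genes higher and 3493 to 3969 lower, and 1308 to 1443 at least 2-fold higher and 1266 to 1533 at least 2-fold lower. With the replicate block, 3707 genes were called higher and 4059 lower (1387 and 1442 at least 2-fold). Whether the replicate numbers pair the samples was not settled. Same-numbered arrays correlated at 0.298, -0.02 and 0.088 in their deviations from the group means, and arrays of unlike number at -0.217 to 0.144. Correlations among so few arrays cannot decide it. Of 333 named genes that were followed, 263 kept their call and direction under all 19 alternatives, treat included. Not every gene named above was among the 333. The planned promoter shares at other folds were not run, because under 80% of the called genes had a promoter in the table. Dim probe sets, several families of close copies and 7 arrays of whole tissue limit what can be read from single genes.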
